A study of Mus musculus with 4 samples.

Results

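Whole gonads of male mouse embryos at embryonic day 13.5 (E13.5) were set against those of the day before (E12.5), with both stages measured on the same microarray slide. The comparison used the 4 arrays of these stages, 2 of E12.5 and 2 of E13.5, of the 8 arrays in the series. These 4 arrays belong to 2 of the series' 4 samples, and they were chosen by stage label alone. The series also holds 4 arrays of E14.5 and E15.5. All embryos were wild type and male, of a mouse line labelled MCH, the tissue was the gonad, and no treatment is named. The series text calls the arrays of a stage biological duplicates, and the number of gonads or embryos behind an array is not given in the sources used here.

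On these days the sex-determined male gonad builds its cords. Sertoli cells enclose the germ cells, fetal Leydig cells outside the cords begin to make steroid hormones, and the germ cells leave the mitotic cycle, give up the expression of pluripotency genes and start the male programme, in which the piRNA pathway and new DNA methylation will silence transposons. In the female gonad of the same age the germ cells enter meiosis instead.

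Slide 1 held array 1 of both stages and slide 2 held array 2 of both. The value of a gene was the log2 signal minus that of the array's 75th percentile, its difference was taken as E13.5 minus E12.5 within each slide, and the mean of the 2 slides is reported. Levels are printed as percent of the array's 75th percentile, slide 1 before slide 2, and cannot be set against the level of another gene because probes differ. Values after ± are standard errors of limma (n = 2 arrays per stage). Its residual spread comes from all 8 arrays, and with 2 per stage it measures only the spread between duplicates. Of its 3 residual degrees of freedom 1 comes from the 4 arrays compared, as the disagreement of slides 1 and 2. The others come from the E14.5 and E15.5 duplicates, all on slide 3, which hold no spread between slides. Where the difference of a single slide is used, only those duplicates give the spread. Between 64.1% and 69.8% of 41174 probes were well above background on these arrays, and the arrays of slide 2 were dimmer than those of slide 1, with median signals of 73.3 and 74.6 against 109 and 108.

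A gene was called where its Benjamini-Hochberg adjusted p in limma was under 0.05. Of 21986 genes tested, 981 (4.46%) were called. They were 640 higher (2.91%) and 341 lower (1.55%) at E13.5. The median difference was 1.77 among the higher and -1.70 among the lower genes, and 250 and 118 of them differed by more than 4-fold. All 981 had the same sign on both slides, as did 76.5% of all genes. The call sets the mean of these slide differences against a spread to which their disagreement contributes, so it favours genes with matching signs. Without regard to the test, both E13.5 arrays lay above both E12.5 arrays for 4910 genes (22.3%) and below them for 6365 (29.0%). Of the genes called higher 172 were not well above background on either E12.5 array, and 116 of the genes called lower were not on either E13.5 array, so the change of those named is given as a bound ("at least"). Of all called genes 59 passed the filter only through E14.5 or E15.5, and 25 of these were above background on none of the 4 arrays compared, so no fold is given for them. Among tested genes 13474 (61.3%) had a gene symbol, against 447 of the 640 higher (69.8%) and 127 of the 341 lower (37.2%). With the slide 2 difference alone (an array of slide 1 left out) 32 genes were called, and with that of slide 1 alone 71. Without an E15.5 array 550 were called.

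**Figure D1:**
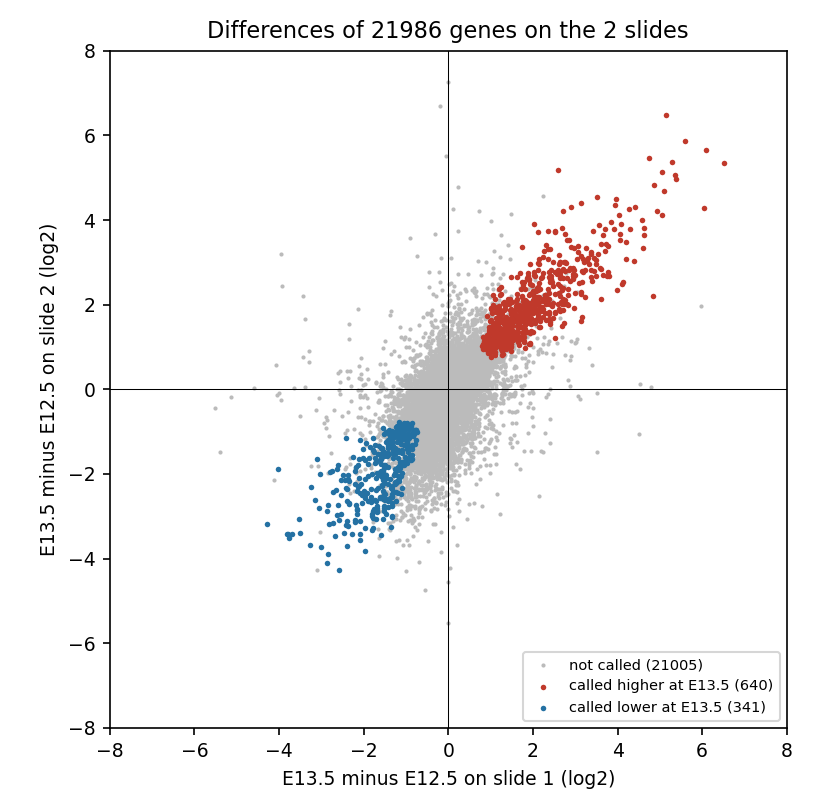
Each point is 1 of 21986 genes, with its E13.5 minus E12.5 difference (log2) on slide 1 on the horizontal axis and on slide 2 on the vertical axis. Red points are the 640 genes called higher and blue points the 341 called lower, all of which lie in the quadrants where both slides have the same sign, while some grey points (not called) lie near 1 axis, where a single slide shows the difference.

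Across all genes the differences of the slides correlated at r = 0.69, which describes these arrays and has no test because genes are not independent replicates. More than 2-fold on both slides were 776 genes higher and 530 lower, and 43 were over 2-fold in opposite directions. The typical gene differed little: the median difference of all genes was -0.057, and it was -0.061 on slide 1 and -0.044 on slide 2. Duplicates were over 2-fold apart for 2283 genes at E12.5 and 2139 at E13.5.

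The defining markers of the tissue were present. Summed signals of 7 Sertoli cell markers (Sox9, Sox8, Amh, Dhh, Cst9, Aard and Cldn11) were 14571 and 15583 at E12.5 and 17564 and 17959 at E13.5, and 0 of the 7 were called. Those of 6 germ cell markers were 7553 and 7069.9 at E12.5 and 12038 and 12398 at E13.5, and Mael and Dnd1 rose. The 7 nephric markers, of the mesonephros that lies beside the gonad, were at 301 and 325 at E12.5 and 87.4 and 148 at E13.5, and 1 of them (Lhx1) fell. The 5 tested erythroid markers, of which 3 fell, summed to 27718 and 47344 at E12.5 and 19739 and 31465 at E13.5. Slide 2 was higher at both stages, and Hba-a1, which was not called, made the largest part of each sum. Endothelial markers were at 784 and 836 at E12.5 and 509.5 and 451 at E13.5. Macrophage markers were at 52.1 and 61.6 at E12.5 and 50 and 65.3 at E13.5, which overlapped, and summed ovarian markers also did, at 949 and 1198 at E12.5 and 974 and 1285 at E13.5. Irx3 of the ovarian and Cyp11b2 of the adrenal markers were above background on none of the 4 arrays. The part that the amount of each cell type plays in the gene differences was not tested.

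Male germ cell genes were among the strongest risers. Nanos2, an RNA-binding protein that directs germ cells to the male fate, had signals of 26.2 and 32.3 at E12.5 and 243 and 262 at E13.5. Dnmt3l, the cofactor of DNA methyltransferases in male germ cells, was at 15.0 and 7.49 at E12.5 and 399 and 330.0 at E13.5. Mael, a piRNA pathway protein, was at 497 and 567 at E12.5 and 2193 and 2569 at E13.5. In each of the 3 genes both E13.5 arrays lay above both E12.5 arrays by several fold. The differences were 3.12 ± 0.43 for Nanos2, 5.10 ± 0.24 for Dnmt3l and 2.16 ± 0.19 for Mael (limma adjusted p = 0.0218, 0.00249 and 0.00761). In bulk tissue such as this, more cells of a type and more RNA per cell cannot be told apart.

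Of the 21 tested genes of male germ cell fate, the piRNA pathway and Tudor proteins, 12 rose and 0 fell, with a median difference of 1.44 against -0.057 over all genes. With slide 2 alone 1 member was called, and with slide 1 alone 3. The slicer-type Argonaute genes of the pathway rose, Piwil2 from 97.7 and 102 to 265 and 228 and Piwil1 from 3.52 and 1.73 to 20.7 and 11.4, the latter above background on 1 of the E12.5 arrays. Henmt1, which methylates the ends of piRNAs, went from 2.47 and 1.55 to 37.5 and 21.5, also above background on 1 E12.5 array. Tdrd1, a Tudor scaffold of the piRNA granules, went from 188 and 219.8 to 940.4 and 942 and Asz1, another granule protein, from 71.1 and 73.1 to 239 and 225. Exd1, a piRNA biogenesis factor, went from 117 and 129 to 297 and 310.0, and Morc1, which represses transposons in male germ cells, from 47.5 and 39.3 to 431 and 334. For Henmt1, Morc1 and Tdrd1 the differences were 3.86 ± 0.21, 3.13 ± 0.16 and 2.21 ± 0.34 (adjusted p = 0.00287, 0.00249 and 0.0298). Tex101, a surface glycoprotein of germ cells, rose by 2.0 ± 0.18 and Dnd1, a germ cell RNA-binding protein, by 1.44 ± 0.21. The general germ cell genes did not pass the test. Ddx4, the mouse vasa homologue, was at 0.78 and Dazl at -0.36 (adjusted p = 0.321 and 0.294), and Fkbp6, needed for piRNA loading, was at 1.80 ± 0.45 (adjusted p = 0.101).

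X-linked germline genes included several of the largest differences. Nxf2, an RNA export factor of germ cells, had signals of 3.03 and 2.48 at E12.5 and 278 and 100.5 at E13.5, the largest difference of any called gene with a symbol at 5.93 ± 0.30 (adjusted p = 0.00249), though its E13.5 arrays differed by more than 2-fold from each other. Ctag2, a cancer-testis antigen gene, was above background on neither E12.5 array and was at least 11.7-fold higher at E13.5 (adjusted p = 0.00189). Of 16 tested genes of this list 9 rose and 1 fell, with a median of 1.76, and 2 members were called with either slide alone. Mageb18 and Akap4, counted as risers, passed the filter only through later stages, and without such genes 7 of 14 rose and the median was 1.44. Taf7l, a germ cell TFIID subunit, went from 20.8 and 23.2 to 176 and 133, and Tktl1, a transketolase-like gene, from 5.55 and 5.41 to 46.6 and 51.2. Mageb4 went from 71.4 and 68.5 to 931 and 660.1 and Fthl17e, of the ferritin heavy chain family, from 73.9 and 57.9 to 250.2 and 246. The member that fell was Tex13b, from 191 and 201 to 94.9 and 93.4, a difference of -1.06 ± 0.19 (adjusted p = 0.0418). Tex11, of meiotic crossing over, and Nxf3 were at 0.69 ± 0.19 and 0.95 ± 0.19 and did not pass (adjusted p = 0.12 and 0.0566).

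Over the X chromosome as a whole 40 of 476 tested genes were called higher (8.40%) and 5 lower, against 405 of 12989 autosomal genes (3.12%) higher. Among genes with a symbol, taken in chromosome order, there were 31 runs of at least 2 called neighbours, 30 of them higher and 1 lower, with 73 genes in all. A gene called higher was followed by another in 41 of 447 cases (9.17%), where 3.32% of the 13474 genes placed were called higher. The runs with most members were on the X chromosome. One held Magea6, Magea3, Magea8, Magea5 and Magea1, of which all but Magea5 were chosen after their values were seen. Their differences were 3.02 ± 0.19, 2.78 ± 0.17, 3.12 ± 0.21, 2.17 ± 0.23 and 2.98 ± 0.19 in that order. Another run held Ssxb1, Ssxb2, Ssx9 and Fthl17e, and another Mageb4, Dcaf8l, Mageb1 and Mageb18, of which the last pair were above background on none of the 4 arrays. Ssxb1, Ssx9 and Mageb1 were chosen after their values were seen as well. Dcaf8l was at least 14.0-fold and Ssxb2 at least 2.81-fold higher (adjusted p = 0.00367 and 0.00666). Members of these families are near-identical copies, so probes may share targets and the separate values are uncertain. Autosomal runs included Adh1 and Adh4, alcohol dehydrogenases at 2.41 ± 0.18 and 1.85 ± 0.20, and Mup4, Mup1 and Mup3, major urinary protein genes at 1.49 ± 0.20, 1.62 ± 0.28 and 2.62 ± 0.23, a family that again shares sequence. Adh4 and the 3 Mup genes were chosen after their values were seen.

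**Figure D2:**
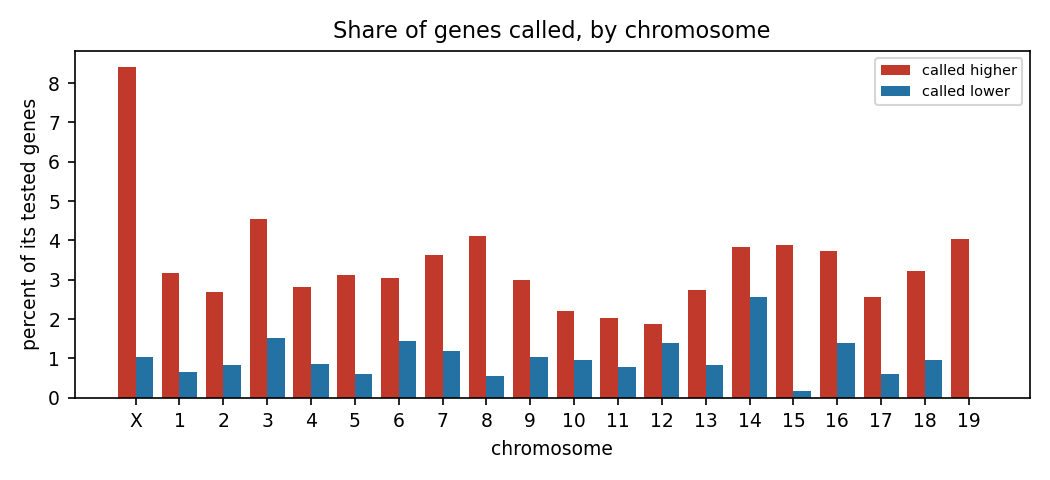
Bars give, for the X chromosome and each autosome, the percent of tested genes with a symbol that were called higher (red) or lower (blue) at E13.5. The X chromosome has the tallest red bar, 8.40% of its 476 genes, and the autosomes lie between 1.87% and 4.55%.

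Germline genes that promoter DNA methylation keeps silent in somatic cells of the mouse formed a list of 26 tested genes, which shares Mael, Tdrd1 and other members with the male germ cell list. Of these 10 rose and 1 fell, and the median was 0.95. With either slide alone 0 of them were called. Brdt, a bromodomain protein of spermatogenic chromatin, had signals of 36.3 and 35.6 at E12.5 and 153 and 129 at E13.5, and the germ cell kinase-like gene Stk31 of 145.2 and 90.5 at E12.5 and 460.3 and 263 at E13.5. Sycp3, a lateral element protein of the meiotic chromosome axis, had signals of 66.3 and 41.6 at E12.5 and 215 and 159 at E13.5, and Sycp1, of the central region, of 31.7 and 44.5 at E12.5 and 107 and 114.1 at E13.5. All 4 genes were higher on both E13.5 arrays than on either E12.5 array. Their differences were 1.96 ± 0.17, 1.6 ± 0.21, 1.81 ± 0.20 and 1.56 ± 0.18 (adjusted p = 0.00718, 0.0193, 0.0129 and 0.0145). Dpep3, a testis dipeptidase, was at 3.40 ± 0.75 and did not pass (adjusted p = 0.0746), with 2.25 on slide 1 and 4.56 on slide 2.

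Promoters of Mael, Taf7l, Tdrd1, Sycp3 and Brdt, which all rose, are shown because they share the E-box letters CACGTG, in capitals. Each window runs from 250 bases before to 50 after the annotated start, 5′ to 3′ on the gene's strand, as given by RefSeq for build GRCm38.p6. The Mael window lies at chr1:166238695-166238994 (minus strand), that of Taf7l at chrX:134476441-134476740 (minus), that of Tdrd1 at chr19:56826025-56826324 (plus, 1 of 3 annotated starts), that of Sycp3 at chr10:88459337-88459636 (plus) and that of Brdt at chr5:107330944-107331243 (plus).
Mael: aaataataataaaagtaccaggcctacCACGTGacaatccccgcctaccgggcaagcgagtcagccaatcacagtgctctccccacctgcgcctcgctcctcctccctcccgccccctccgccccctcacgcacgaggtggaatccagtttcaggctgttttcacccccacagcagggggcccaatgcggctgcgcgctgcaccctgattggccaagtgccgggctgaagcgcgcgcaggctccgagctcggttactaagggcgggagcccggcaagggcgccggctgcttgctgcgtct
Taf7l: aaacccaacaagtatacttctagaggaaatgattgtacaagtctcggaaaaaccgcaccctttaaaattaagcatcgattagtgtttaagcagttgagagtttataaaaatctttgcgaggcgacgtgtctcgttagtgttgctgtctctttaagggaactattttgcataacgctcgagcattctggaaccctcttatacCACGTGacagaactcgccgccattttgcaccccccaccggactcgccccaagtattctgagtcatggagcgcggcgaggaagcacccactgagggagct
Tdrd1: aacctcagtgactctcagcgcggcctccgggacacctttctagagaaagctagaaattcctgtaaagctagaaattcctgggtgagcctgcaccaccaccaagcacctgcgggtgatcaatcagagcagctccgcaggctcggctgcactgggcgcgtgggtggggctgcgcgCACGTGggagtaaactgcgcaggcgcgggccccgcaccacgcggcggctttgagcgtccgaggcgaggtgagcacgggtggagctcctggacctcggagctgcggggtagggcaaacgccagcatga
Sycp3: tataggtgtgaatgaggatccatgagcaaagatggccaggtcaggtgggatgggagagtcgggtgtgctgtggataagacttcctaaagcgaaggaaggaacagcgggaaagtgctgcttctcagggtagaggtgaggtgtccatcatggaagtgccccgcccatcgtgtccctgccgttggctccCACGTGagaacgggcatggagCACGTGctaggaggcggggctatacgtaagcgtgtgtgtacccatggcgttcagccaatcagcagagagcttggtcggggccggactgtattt
Brdt: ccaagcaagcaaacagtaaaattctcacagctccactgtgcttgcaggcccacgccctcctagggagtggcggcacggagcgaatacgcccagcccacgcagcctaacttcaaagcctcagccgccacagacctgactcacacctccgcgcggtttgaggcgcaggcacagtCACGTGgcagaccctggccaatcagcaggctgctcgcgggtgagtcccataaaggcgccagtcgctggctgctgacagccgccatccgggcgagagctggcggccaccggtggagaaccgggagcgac
CACGTG reads the same on both strands. At least 1 window held it in 14 of the 26 genes of this list (53.8%), in 8 of 18 genes of the male germ cell list (44.4%) and in 1201 of all 10749 tested genes with a window (11.2%). Among called genes the share was 34 of 333 higher (10.2%) and 7 of 98 lower (7.14%). Dnmt3l, which also rose, held it in 1 of 3 windows. In the list of 26 genes Syce2, the member that fell, held it too, as did uncalled members such as Ddx4 and Mov10l1. The risers Tex101 and Asz1 did not hold it. A match is a string of letters and not a binding site. Counted in the window of each gene that held most of them, CG pairs had a median of 9 among genes called higher, 13 among genes called lower and 20 over all genes.

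Meiosis genes moved in part. Of 30 tested genes of the retinoic acid response and meiosis 7 rose and 2 fell, and the median was 0.29. Besides Sycp1 and Sycp3, Tex15, of meiotic recombination, rose by 1.88 ± 0.24 and Tex12, of the synaptonemal complex, by 1.49 ± 0.16. The recombination gene Msh4 rose by 1.20 ± 0.17 and Crabp2, which binds retinoic acid, by 1.03 ± 0.18. Stra8, the retinoic acid target that opens meiosis, had signals of 111 and 116 at E12.5 and 312 and 327 at E13.5. Its arrays did not overlap between stages, but the difference of 1.49 ± 0.45 was not called (adjusted p = 0.148). Spo11, which makes the meiotic double-strand breaks, was at 0.69 ± 0.19 (adjusted p = 0.116) and Rec8, a meiotic cohesin, at -0.28 with opposite signs on the slides. Those that fell were Sohlh2, a germ cell transcription factor, from 213 and 229 to 83.8 and 100.3, and Syce2, of the synaptonemal complex, from 1573 and 1509 to 804 and 867 (adjusted p = 0.0171 and 0.0453). The transcription factor genes Figla and Nobox of the oocyte programme rose as well, Figla at least 4.27-fold and Nobox from 3.35 and 4.33 to 10.3 and 11 (adjusted p = 0.00876 and 0.0469).

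Genes of pluripotency and of early germ cells went both ways. Of 26 tested 2 rose and 4 fell, and the median was -0.35. With either slide alone 0 were called, and without an E15.5 array 1 was higher and 1 lower. Kit, the receptor of early germ cells, had signals of 188 and 139 at E12.5 and 59.6 and 48.4 at E13.5, and Tdh, the threonine dehydrogenase of pluripotent mouse cells, of 1437 and 1443 at E12.5 and 304 and 478 at E13.5. Prdm1 and Tfap2c, transcription factors that specify germ cells, had signals of 108 and 85.3 at E12.5 and 42.4 and 38.2 at E13.5 and of 102 and 83.0 at E12.5 and 38.3 and 42.4 at E13.5. In all 4 genes both E13.5 arrays lay below both E12.5 arrays. Their differences were -1.59 ± 0.18, -1.92 ± 0.32, -1.25 ± 0.20 and -1.19 ± 0.21 (adjusted p = 0.0128, 0.037, 0.032 and 0.0422). Nanos3, of germ cell survival, went from 31.5 and 32.5 to 121 and 156 and Dppa4, a pluripotency-associated gene, from 501 and 348 to 1208 and 938. The core factors Pou5f1, at 0.55 ± 0.26, and Sox2, at -0.73 ± 0.32, did not pass (adjusted p = 0.322 and 0.293).

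In Nodal signalling, which acts in male germ cells at this age, 1 of 12 tested genes fell and 0 rose, with a median of -0.64. The member that fell was the receptor Acvr1c, from 11.4 and 13.9 to 2.90 and 2.35, and its 3 probes ran from -2.51 to -1.35. Lefty1, an inhibitor and target of the pathway, had signals of 430.0 and 300.0 at E12.5 and 94.4 and 77.9 at E13.5. Its arrays did not overlap, yet the difference of -2.07 ± 0.57 did not pass (adjusted p = 0.123). Lefty2 and the co-receptor Tdgf1 were at -0.86 ± 0.21 and -1.14 ± 0.35 and did not pass either (adjusted p = 0.0977 and 0.151).

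FGF genes moved in both directions. Among ligands, Fgf9, which sustains the male programme in the early gonad, fell from 113 and 98.4 to 42.7 and 39.1, a difference of -1.37 ± 0.17 (adjusted p = 0.0156). The metabolic hormone Fgf21 was at least 5.72-fold higher (adjusted p = 0.00307), and Fgf8 was at 0.96 ± 0.29 and not called. Of the receptors Fgfr4 rose by 1.03 ± 0.17. Among feedback and target genes, Dusp4, a phosphatase of the MAP kinases, fell from 126 and 147 to 37.6 and 44.0 and Etv1, an ETS factor, from 209 and 249 to 87.0 and 86.6. Etv4 and Etv5 were at -1.23 ± 0.30 and -1.03 ± 0.26 (adjusted p = 0.0932 and 0.0977). In all 2 of 26 tested genes rose and 3 fell, and the median was -0.30.

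Several steroid hormone genes of fetal Leydig cells rose. Cyp11a1, which cuts cholesterol to pregnenolone, had signals of 188 and 196 at E12.5 and 1164 and 1562 at E13.5. Those of Cyp17a1, which makes androgen precursors, were 544 and 421 at E12.5 and 1786 and 2173 at E13.5, and those of Insl3, the hormone of testis descent, 878 and 627 at E12.5 and 3908 and 5301 at E13.5. Both E13.5 arrays lay above both E12.5 arrays in the 3 genes, and on slide 2 the step was larger than on slide 1. The differences were 2.81 ± 0.23, 2.04 ± 0.27 and 2.62 ± 0.32 (adjusted p = 0.00665, 0.02 and 0.0158).

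Of 31 tested genes of the Leydig and steroid list 12 rose and 0 fell, with a median of 0.91, and 0 were called with either slide alone and 6 without an E15.5 array. Star, which carries cholesterol into mitochondria, went from 167 and 127 to 536 and 455, and Fdx1, the electron donor of the first enzyme, from 1333 and 1119.8 to 2506 and 2738. The dehydrogenase genes Hsd3b1 and Hsd3b2 rose by 1.41 ± 0.23 and 1.55 ± 0.25, and, being close relatives, may share signal. A second probe of Hsd3b2 was at -2.18, so its direction is uncertain. Lhcgr, the receptor of luteinizing hormone, was at least 2.68-fold higher (adjusted p = 0.0448). Agt, the angiotensin precursor, went from 31.5 and 33.1 to 196 and 227 and Ren1, the renin that cuts it, from 344 and 304 to 879 and 845. The carboxylesterase Ces1d rose by 1.53 ± 0.22 and Gramd1b, a sterol transporter, by 0.91 ± 0.16. The 6 Leydig cell markers, all of which are in the list, had summed signals of 3081 and 2371 at E12.5 and 10053 and 12959.9 at E13.5, and all 6 rose.

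Genes of cholesterol synthesis, uptake and storage had 0 calls among 31 tested, with a median of 0.55. Of the 31, 26 were positive and 20 did not overlap upward, where 22.3% of all genes did not overlap upward. Hmgcs1, at the head of the pathway, was at 0.58 ± 0.24. Tm7sf2, a sterol reductase, was at 1.65 ± 0.38, and Mvd, of the mevalonate steps, at 0.88 ± 0.20 (adjusted p = 0.0835 and 0.0826).

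**Figure D3:**
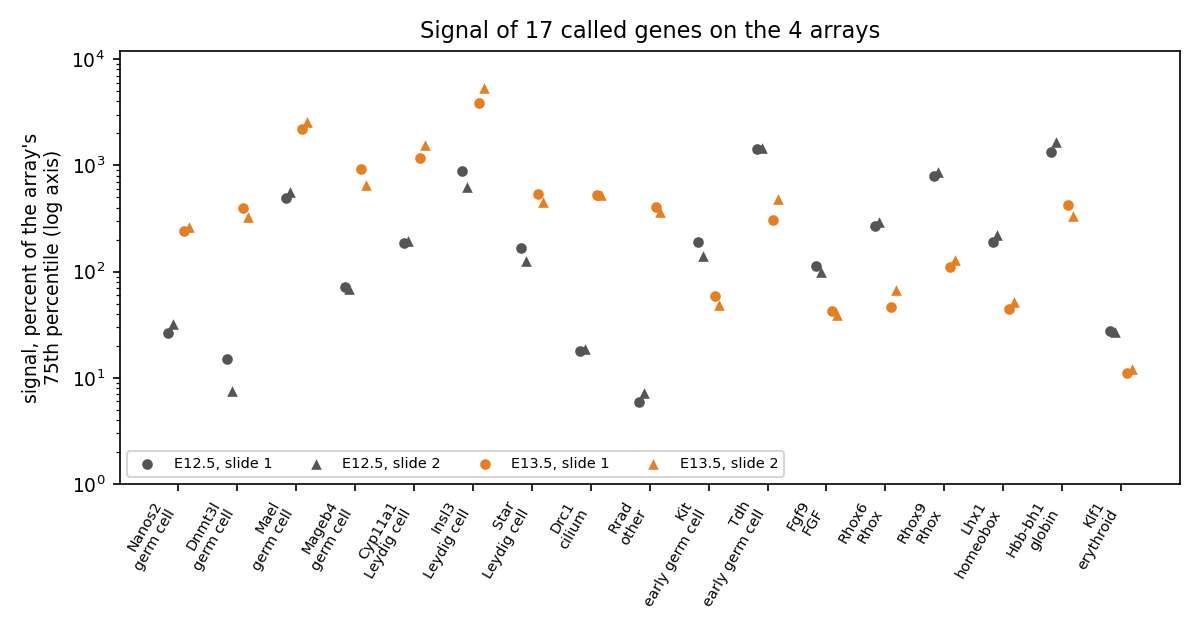
Signal of 17 called genes on each array, as percent of the array's 75th percentile on a log axis, with E12.5 in grey and E13.5 in orange, slide 1 as circles and slide 2 as triangles. From Nanos2 to Rrad both orange points lie above both grey points, and from Kit to Klf1 both lie below.

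Of 42 tested Sertoli and supporting cell genes 4 rose and 1 (Fgf9) fell, and the median was 0.05, with 2 higher and 1 lower without an E15.5 array. Clu, a secreted chaperone, went from 1920.4 and 1027 to 4307 and 3714, and Inha, the inhibin alpha subunit, from 327 and 259 to 818 and 1082. Hsd17b1, a steroid dehydrogenase, went from 16.2 and 17.7 to 71.0 and 59.7 and the tubulin gene Tubb3 from 43.7 and 27.1 to 105 and 93.6. Their differences ran from 1.51 ± 0.21 for Clu to 1.94 ± 0.18 for Hsd17b1. Of 16 peritubular and smooth muscle genes Acta2, Cnn1 and Pcp4 rose, by 1.39 ± 0.17, 1.51 ± 0.17 and 1.25 ± 0.22. The 3 probes of Acta2, smooth muscle actin, ran from 0.20 to 1.39. Dcn, the matrix proteoglycan decorin, went from 993 and 1368 to 2805 and 3463, and Tgfbi, a matrix protein, fell from 3884 and 4258 to 1505 and 1915. None of 38 interstitial progenitor genes was called, and their median was -0.023.

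Genes of the motile cilium, which belong to the sperm tail and to ciliated epithelia, rose in part. Drc1, of the dynein regulatory complex, had signals of 18 and 18.5 at E12.5 and 526 and 531 at E13.5, a difference of 4.85 ± 0.21 (adjusted p = 0.00189). Tekt1, a filament protein of axonemes, had signals of 43.1 and 55.8 at E12.5 and 230.0 and 338 at E13.5, and Rsph9, of the radial spoke head, of 112 and 107 at E12.5 and 314 and 679 at E13.5. All 3 were higher on both E13.5 arrays, and in Rsph9 these arrays differed by more than 2-fold. Of 42 tested genes 9 rose and 0 fell, and the median was 0.35. The other 6 were Ccdc65, Drc3, Dnah8, Cfap300, Dnaaf1 and Zmynd10, with differences from 1.09 ± 0.16 for Dnaaf1 to 1.67 ± 0.16 for Ccdc65, where Zmynd10 was above background on neither E12.5 array (at least 3.01-fold higher, adjusted p = 0.0118). Drc1 was the 1 member called with a single slide, and 4 were called without an E15.5 array.

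Homeobox genes of the X-linked Rhox cluster went in opposite directions. Rhox6 had signals of 271 and 295 at E12.5 and 46.6 and 66.7 at E13.5 and its neighbour Rhox9 of 791 and 858 at E12.5 and 109.6 and 129 at E13.5. Both were lower on each slide, with differences of -2.34 ± 0.28 and -2.79 ± 0.31 (adjusted p = 0.015 and 0.0129), and they formed the 1 run of neighbours that was lower. Rhox3a rose by 1.72 ± 0.22, and Esx1, an X-linked relative, was at least 2.57-fold higher (adjusted p = 0.00307). Rhox5, at 0.10 ± 0.32, and Rhox2a, at -0.69 ± 0.28, were not called. Rhox2a and Rhox3a have near-identical copies, so their values are uncertain.

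Among 61 tested Lim, Pax, Irx and other homeobox factor genes 1 rose and 4 fell. Lhx1, of the nephric duct and early kidney, had signals of 192 and 222 at E12.5 and 44.4 and 51.6 at E13.5. Pax6 was at 12.3 and 9.70 at E12.5 and 3.11 and 1.82 at E13.5 and Otx2 at 26.3 and 30.3 at E12.5 and 8.01 and 7.14 at E13.5, both being factors of eye and brain. The stages did not overlap in any of the 3. The differences of Lhx1, Pax6 and Otx2, which all fell, were -2.11 ± 0.16, -2.20 ± 0.18 and -1.90 ± 0.30 (adjusted p = 0.0045, 0.00666 and 0.0325). Irx2 rose by 1.52 ± 0.17. Pax2 and Pax8, which act with Lhx1 in the nephric duct, were at -0.26 ± 0.16 and 0.15 ± 0.45 and not called, and the nephric list had 1 call (Lhx1) among 21 with a median of -0.37. Without Lhx1 the other 6 nephric markers summed to 109 and 104 at E12.5 and 43.0 and 96.8 at E13.5, and the lower value of slide 1 holds the low Cdh16 signal of that array. Their part in the fall of Lhx1 was not tested.

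Several erythroid genes fell. Hbb-bh1, an embryonic beta-like globin, had signals of 1339 and 1663 at E12.5 and 425 and 332 at E13.5, and Hba-x, the embryonic alpha-like globin, of 984 and 1378 at E12.5 and 434 and 446 at E13.5. Klf1, the erythroid transcription factor, was at 27.6 and 27.1 at E12.5 and 11.1 and 12.1 at E13.5. Both E13.5 arrays were the lower ones in each case. The differences were -1.99 ± 0.28, -1.40 ± 0.22 and -1.24 ± 0.21 (adjusted p = 0.0231, 0.0325 and 0.0371). Of 26 tested genes 7 fell and 0 rose, and the median was -0.84, with 0 called on either slide alone and 4 without an E15.5 array. The others were the anion exchanger Slc4a1 at -1.14 ± 0.21, the blood group protein Kel at -1.47 ± 0.18, the transferrin receptor Tfrc at -1.23 ± 0.16 and Cited4 at -1.5 ± 0.23. Hba-a1, the fetal and adult alpha globin, went from 15343 and 33580.5 to 14112 and 27245, where the slides differed more than the stages, and it was not called (adjusted p = 0.582). Hbb-y, another embryonic globin, was at -1.37 ± 0.40 and did not pass (adjusted p = 0.141). Of 30 endothelial genes 1 fell, the tight junction gene Cldn5 from 647 and 596 to 323 and 312, and 25 were negative with a median of -0.46.

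Cell cycle genes had small negative differences in nearly every member, and few passed the test. Over all genes 29.0% did not overlap downward. Of 42 tested genes of DNA replication and S phase 41 were negative and 36 did not overlap downward, with a median of -0.42 (slide 1 -0.46, slide 2 -0.36). The 1 call was Orc1, of the origin recognition complex, from 90.6 and 73.3 to 39.2 and 40.2 (adjusted p = 0.0434). The replicative helicase genes Mcm2 to Mcm7 ran from -0.60 ± 0.18 for Mcm4 to -0.40 ± 0.16 for Mcm7, and none of the 6 passed. Of 51 tested genes of G2 and mitosis 49 were negative and 37 did not overlap downward, with a median of -0.40. Smc2, a condensin subunit, fell, with a difference of -1.09 ± 0.20 (adjusted p = 0.0478). The mitotic cyclin genes Ccnb1 and Ccnb2 were at -0.53 ± 0.16 and -0.52 ± 0.18 (adjusted p = 0.151 and 0.194). Cdkn2b, an inhibitor of cell cycle kinases, rose by 1.44 ± 0.24. In ribosomal protein genes the median was 0.013 over 76 genes, and in respiratory chain genes -0.014 over 80, with 0 calls in both.

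The promoters of Mcm5 and Mcm6 are shown for the letters of E2F-type elements, TTTCCCGC and TTTGGCGC on either strand, in capitals. They lie at chr8:75109259-75109558 (plus strand) and chr1:128359656-128359955 (minus), as given by RefSeq for GRCm38.p6.
Mcm5: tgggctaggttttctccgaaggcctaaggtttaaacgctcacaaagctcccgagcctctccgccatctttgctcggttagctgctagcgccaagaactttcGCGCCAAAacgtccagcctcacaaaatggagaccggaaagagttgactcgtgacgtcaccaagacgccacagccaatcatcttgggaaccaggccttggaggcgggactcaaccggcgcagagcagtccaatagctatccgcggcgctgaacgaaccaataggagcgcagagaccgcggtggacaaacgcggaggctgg
Mcm6: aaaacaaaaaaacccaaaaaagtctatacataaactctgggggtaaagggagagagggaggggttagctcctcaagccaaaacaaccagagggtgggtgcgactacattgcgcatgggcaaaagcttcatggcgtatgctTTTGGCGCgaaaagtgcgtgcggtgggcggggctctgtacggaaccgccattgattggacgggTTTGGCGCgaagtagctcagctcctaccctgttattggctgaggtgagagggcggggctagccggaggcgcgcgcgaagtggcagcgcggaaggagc
These letters occurred in 11 of 35 S phase genes with a window (31.4%) and in 325 of all 10749 (3.02%). Mcm5 and Mcm6 were not called, and Orc1, the 1 called gene of that list, did not hold them. The E2F and E-box letters were searched separately, and a gene was counted for each where at least 1 of its windows held a match. Of genes called higher 12 of 333 held the E2F letters (3.60%) and of those called lower 1 of 98 (1.02%). The NR5A1 motif AAGGTCA, also searched on both strands, was in 0 of 19 Leydig list genes with a window and in 449 of all (4.18%). At so low a share 19 genes are too few to tell whether the list differs from all genes. Other spellings of the motif were not searched. Of the 12 called Leydig list genes 8 had a window, and Star and Cyp17a1 had none. Whether Leydig promoters hold NR5A1 sites was therefore not tested.

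**Figure D4:**
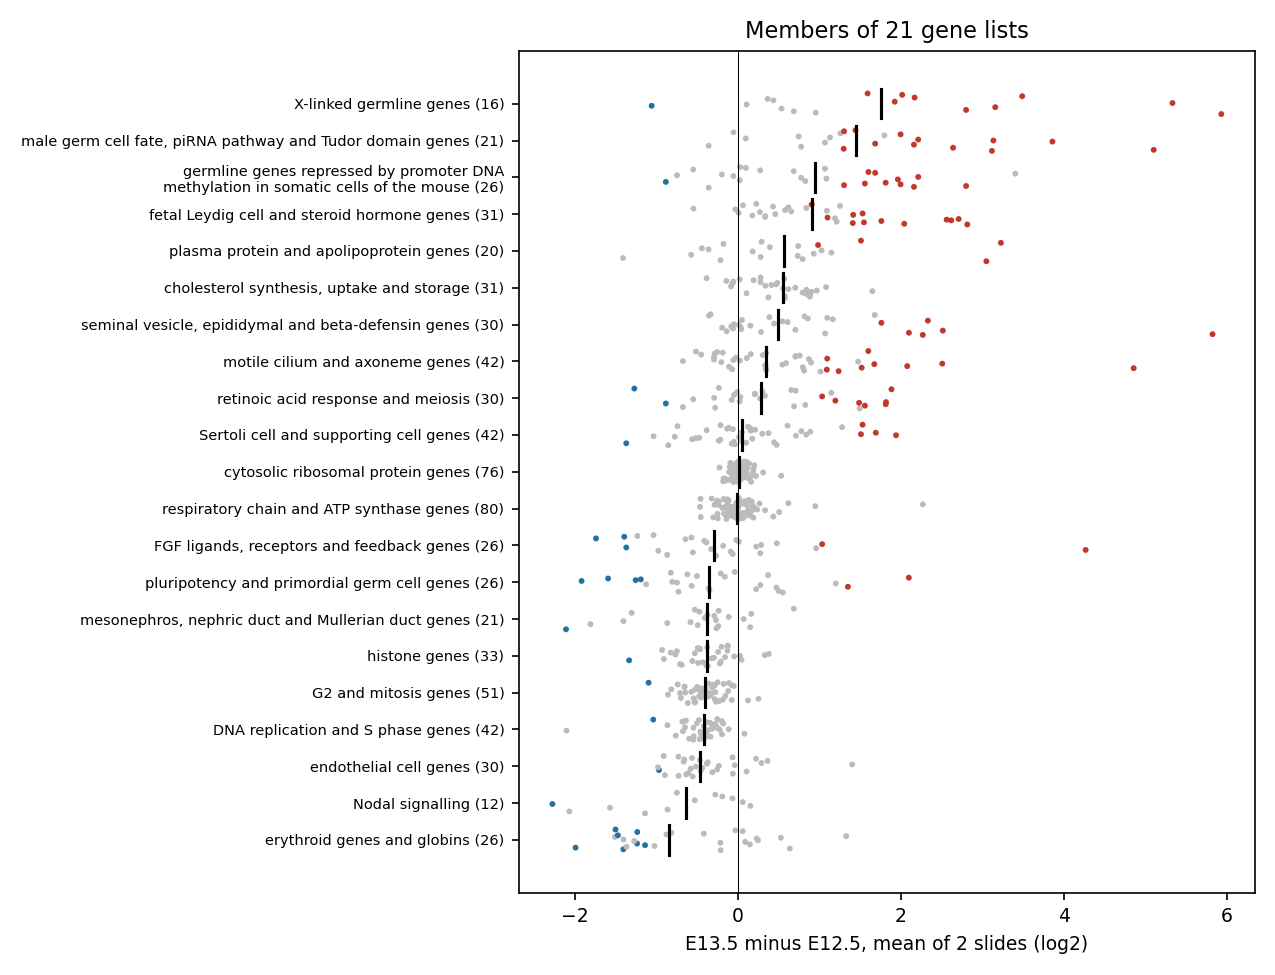
Each point is 1 tested gene of 21 gene lists, placed by its mean E13.5 minus E12.5 difference (log2), with genes called higher in red, called lower in blue and not called in grey. Black bars are list medians, from -0.84 for erythroid genes to 1.76 for X-linked germline genes, and the number of tested genes stands in brackets.

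The 25 genes of largest rise with a symbol also held genes outside these programmes. Rrad, a small GTPase, had signals of 5.89 and 7.20 at E12.5 and 403 and 365 at E13.5, a difference of 5.88 ± 0.18 (adjusted p = 0.00189). Marchf1, a ubiquitin ligase of antigen-presenting cells, had signals of 1.99 and 2.25 at E12.5 and 31.0 and 50.5 at E13.5, and Fabp9, a fatty acid-binding protein of testis, of 2.49 and 2.19 at E12.5 and 35.9 and 34.0 at E13.5, above background on 1 E12.5 array. The 3 genes rose on both slides. Seminal vesicle gene Svs5 was at least 24.7-fold higher, Pkd2l1, a cation channel subunit, at least 10.5-fold and St8sia3, a sialyltransferase, at least 7.83-fold. Genes known from immune cells were Gzma, a granzyme, at least 6.80-fold higher, Cd86, a co-stimulatory ligand, at least 5.01-fold, Klrb1f, a natural killer cell receptor, at least 8.46-fold and the interleukin Il22 at least 2.50-fold. Macrophage markers overlapped between the stages, and the part of immune cells in these values was not tested. The nuclear receptor Nr2e1 was at least 4.99-fold and the methionine enzyme Mat1a at least 4.25-fold higher. Bounds for Kcns1, Igbp1b, Trim61 and Fam205c were at least 7.18-fold, at least 4.57-fold, at least 3.71-fold and at least 4.55-fold, and Fbxw13, above background on 1 E12.5 array, rose by 3.90 ± 0.58. Adjusted p-values of the genes given as bounds here ran from 0.00189 for Nr2e1 to 0.0186 for Kcns1.

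Among the 25 genes of largest fall, Proc, which encodes the anticoagulant protein C, had signals of 84.7 and 96.8 at E12.5 and 12 and 10.6 at E13.5, a difference of -3.0 ± 0.18 (adjusted p = 0.00307). Mall, of the MAL proteolipid family, had signals of 362 and 382 at E12.5 and 87.0 and 80.8 at E13.5, and Mogat2, an acyltransferase of fat absorption, of 147 and 150.5 at E12.5 and 32.3 and 42.3 at E13.5. The stages did not overlap in any of the 3 genes. The organic anion transporter Slco4c1 was at least 3.51-fold lower, the cadherin-related Cdhr1 at least 5.66-fold and the calcium sensor Scgn at least 3.67-fold. Lypd1, Pla2g4e and Has3, the last a hyaluronan synthase, were at least 4.57-fold, at least 4.59-fold and at least 3.39-fold lower. For the amino acid transporter Slc6a20a, the xenobiotic receptor Nr1i2, the homeobox gene Evx1 and the hormone gene Avp the bounds were at least 3.06-fold, at least 2.78-fold, at least 2.50-fold and at least 2.18-fold. Adjusted p-values of these bounds ran from 0.0038 for Cdhr1 to 0.0382 for Avp. Tspan1 was at -2.58 ± 0.20, Paqr5 at -2.35 ± 0.35 and Ptpn22, a phosphatase of lymphocytes, at -2.20 ± 0.32, and all 3 fell. Dapl1, Gbp2b and Zan fell as well, with differences of -2.37 ± 0.34, -2.33 ± 0.43 and -2.18 ± 0.20, and the first 2 were above background on 1 E13.5 array (adjusted p = 0.0241, 0.0474 and 0.00863).

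Imprinted genes, expressed from 1 parental allele, had 4 rises and 1 fall among 36 tested. Kcnq1ot1, a long noncoding RNA that silences its neighbours on the paternal allele, had signals of 31.6 and 63.5 at E12.5 and 10.7 and 10.8 at E13.5. Phlda2 and Slc22a18, 2 genes of the same imprinted cluster on chromosome 7, had signals of 16.8 and 17.2 at E12.5 and 72.9 and 87.9 at E13.5 and of 11.7 and 11.2 at E12.5 and 38.7 and 43.5 at E13.5. Kcnq1ot1 was lower and the other 2 were higher on both slides. The differences were -2.05 ± 0.27, 2.23 ± 0.18 and 1.85 ± 0.16 (adjusted p = 0.0198, 0.00657 and 0.00742), while a second probe of Slc22a18 was at -0.27. Other genes of this cluster, Cdkn1c at 0.044 and Ascl2 at -0.45, were not called, and Ascl2 was chosen after its value was seen. Zrsr1 rose by 0.99 ± 0.16, and the fourth riser was Dcn.

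Secreted and plasma proteins also rose in part. Afp, alpha-fetoprotein, had signals of 36.7 and 14.8 at E12.5 and 188 and 197 at E13.5, and the complement gene C4b of 12.9 and 9.78 at E12.5 and 93.0 and 113 at E13.5. Each was several fold higher at E13.5 on both slides, by 3.05 ± 0.34 and 3.19 ± 0.32 (adjusted p = 0.0124 and 0.00975). Vtn, vitronectin, was at least 7.10-fold higher, and Itih3 rose by 0.98 ± 0.18 (adjusted p = 0.0045 and 0.0462). C4b has a close relative, C4a, with which its probe may share signal. Of 20 tested plasma protein genes 4 rose and 0 fell, with a median of 0.56, and 2 were called without an E15.5 array. Of 30 seminal vesicle, epididymal and beta-defensin genes 6 rose and 0 fell, with Defb36 from 14.2 and 13.3 to 73.7 and 83.9 and Spint1, a protease inhibitor, from 11.1 and 13.2 to 49.4 and 75, and 21 of the 30 were above background on all 4 arrays. Svs4, Defb20 and Spink10, counted as risers, passed the filter only through later stages. Svs5, also counted, was above background on neither E12.5 array. Of 72 genes of this list on the array only 30 were tested. A member dim at E12.5 that passed through a later stage could hardly be called lower, so the count of 6 against 0 does not measure a direction of the list.

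In other signalling families single members changed. Bmp8b, a BMP of germ cells, was at least 4.41-fold higher, and Rspo2, which amplifies Wnt signals, at least 3.47-fold (adjusted p = 0.0095 and 0.00337). Lgr5, a receptor of such signals and 1 of the ovarian markers, fell from 89.2 and 93.3 to 31.0 and 27.1 (adjusted p = 0.0109). Esr1, the estrogen receptor, rose by 1.04 ± 0.20. Among 88 cytokine and receptor genes 6 rose and 3 fell, and without an E15.5 array 3 and 0. Il1r2, a decoy receptor, rose by 1.81 ± 0.16 and Il12rb1 by 1.5 ± 0.20, and Tnfrsf21 and Tnfrsf19 fell, with differences of -1.21 ± 0.17 and -0.91 ± 0.16. Striated muscle genes had no common direction, with 10 positive and 11 negative of 21 and a median of -0.039. Among them Myog, a factor of muscle differentiation, and the actin genes Acta1 and Actc1 rose by 1.45 ± 0.26, 1.34 ± 0.18 and 1.46 ± 0.22, and the actin genes resemble each other and Acta2 in sequence, while Myl1, a myosin light chain, was at -2.44 ± 0.57 and not called (adjusted p = 0.0848). Without an E15.5 array 1 of the 21 was called. Egr4, an immediate early transcription factor, went from 188 and 268 to 2047 and 2319, and Coro1a, an actin regulator of leukocytes, from 68.4 and 70.0 to 237 and 274. Of 272 solute carrier genes 9 rose and 3 fell, close to the share over all genes, with Slc16a11 from 30.3 and 26.1 to 249 and 220.1 and Slc32a1, the carrier of inhibitory transmitters, from 4.74 and 1.86 to 30.5 and 26. Of 101 ion channel genes 6 rose and 1 (Kcnq1ot1, which is not a channel) fell, and without an E15.5 array 3 and 1. Besides the cholesterol, interstitial, ribosomal and respiratory lists, those with 0 calls were semaphorins and ephrins, p53 targets, the unfolded protein response, keratins, Polycomb and histone methylation enzymes, mitochondrial ribosomal proteins, proteasome and spliceosome genes. In the meiosis, Nodal, FGF, Sertoli, peritubular, Rhox, homeobox, imprinted, plasma, seminal, cytokine, striated muscle, solute carrier and channel lists at most 1 member was called with either slide alone.

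For some genes the 2 slides gave different answers. Chek2, a DNA damage kinase, had signals of 37.5 and 31.4 at E12.5 and 37.5 and 4839.9 at E13.5, and Lpxn, a focal adhesion protein, of 4.08 and 5.49 at E12.5 and 3.55 and 569 at E13.5. In both a single array, that of E13.5 on slide 2, stood apart, and another probe of each gene showed no such value, at -0.63 for Chek2 and 0.0015 for Lpxn. Cdh16, a cadherin of kidney and nephric duct, had signals of 53.9 and 55.3 at E12.5 and 4.29 and 56.7 at E13.5, low on the E13.5 array of slide 1 alone. Npy4r was at 7.15 and 231 at E12.5 and 7.18 and 5.01 at E13.5, with a high value on the E12.5 array of slide 2, and Prim2, a DNA primase subunit, at 139 and 341 at E12.5 and 8.99 and 286 at E13.5. None of the 10 genes whose slides differed most was called, and the difference of Chek2 was 3.63 ± 1.54 (adjusted p = 0.279). Near the threshold, Tenm4 at -0.98 ± 0.19 and Ttc38 at 0.92 ± 0.17 were called (adjusted p = 0.0499 and 0.0499).

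Arrays of E14.5 and E15.5, all on slide 3, gave the change over a later day in other embryos. Of the 640 genes called higher at E13.5, 59.4% were positive from E14.5 to E15.5, with a median of 0.13. Of the 341 called lower, 74.2% were positive, with a median of 0.38. Over all genes 52.0% were positive with a median of 0.014, and 197 (0.896%) were called higher and 29 (0.132%) lower. With arrays scaled to their medians the 3 medians were -0.013, 0.24 and -0.13. Relative to all genes the medians of genes called higher and lower were 0.12 and 0.37 in both scalings. These cannot differ, because each array is moved by a single constant. With quantile normalization they were 0.0998 and 0.202. Of genes called lower 54.5% were well above background on all 4 arrays of E12.5 and E13.5, and of genes called higher 66.7%. Over all genes the share was 87.6%. The part that low signals play in these later medians was not tested. Called on both days were 34 genes, 15 in the same direction and 19 in opposite ones. The change over a day differed between the days, by the interaction term of limma, for 649 of all genes (2.95%).

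Nanos2 and Nanos3 rose between E12.5 and E13.5 and fell later. Signals of Nanos2 were 38.7 and 46.6 at E14.5 and 4.40 and 1.77 at E15.5, and those of Nanos3 69.4 and 58.5 at E14.5 and 9.63 and 7.18 at E15.5. Both E15.5 arrays were below both E14.5 arrays. The later differences were -3.93 and -2.94 (adjusted p = 0.0329 and 0.0249). The embryonic globin genes Hbb-bh1 and Hba-x fell again, with differences of -3.0 and -2.55 (adjusted p = 0.0256 and 0.0249). Dnmt3l and the Leydig gene Cyp11a1 had later differences of 0.55 and 0.37 and were not called on that day (adjusted p = 0.462 and 0.662). Male germ cell list members had a later median of -0.078 and Leydig list members one of 0.26.

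**Figure D5:**
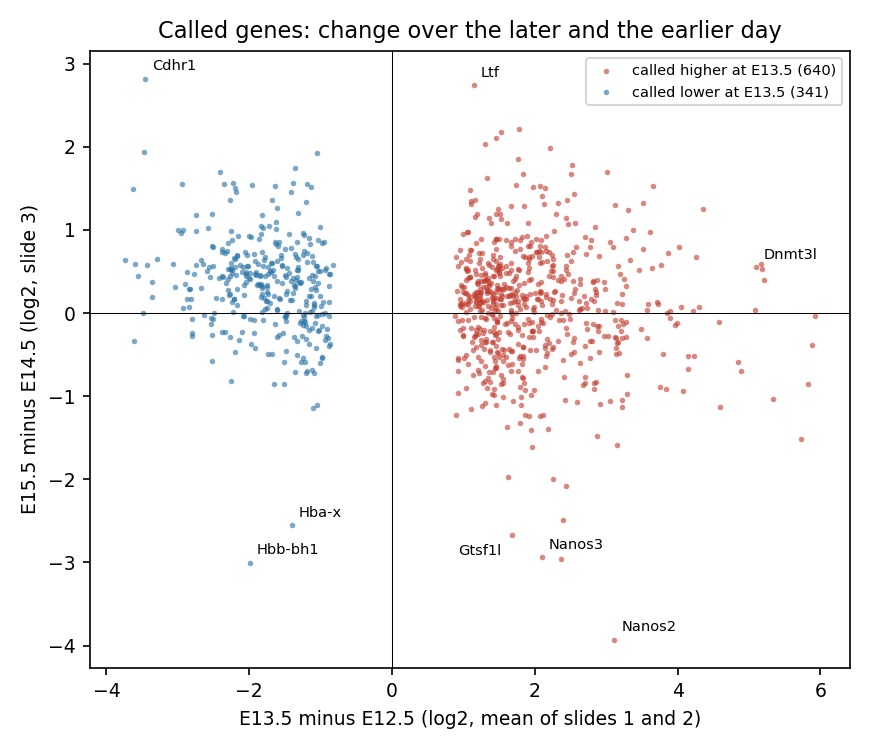
Points are the 640 genes called higher (red) and the 341 called lower (blue) between E12.5 and E13.5, with that difference on the horizontal axis and the E15.5 minus E14.5 difference on the vertical axis (both log2). Nanos2 and Nanos3 lie at -3.93 and -2.94, and Cdhr1 lies at 2.82.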

How the data were processed

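Per the labels' protocols, RNA of frozen gonads was amplified to Cy3-labelled cRNA and hybridised to one-colour Agilent arrays. The deposited scanner files hold spot intensity with background subtracted. Agilent Feature Extraction 9.1.3.1 made those of E12.5 and E13.5 and 9.5.3.1 those of E14.5 and E15.5, per the file headers, while the submitters' processing notes give 9.5. Arrays were not scaled to each other. The authors also deposited a table with 1 ratio per probe and stage, which was used here only to check directions. Its column medians are 1.14, 1.00, 0.898 and 0.859 in order of stage, and its centring and the way arrays were combined stay unknown. All 981 called genes had the same sign in it, but it was made from the same arrays and is no separate evidence.

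From these files, spots of a probe were averaged as log2 of the processed signal, leaving out flagged spots, and the log2 of the array's 75th percentile over non-control probes was subtracted. A probe was kept where the duplicates of some stage were both well above background. Names came from RefSeq accessions of GRCm38.p6 (1 symbol for 22951 of 41174 probes), with the probe of highest mean signal for each gene. limma 3.58.1 in R 4.3.3 fitted all 8 arrays with a mean per stage and a slide term, so that the duplicates of slide 3 add to the spread, and Benjamini-Hochberg adjustment ran over 21986 genes. The pairing comes from the slide numbers in the file headers. "At least N-fold" sets the brighter stage against the higher of the dim probe's value and the lowest signal of probes well above background on each array.

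Genes named are the 25 higher and 25 lower of largest change, called members, the first 6 and the largest uncalled members of lists, markers, the 10 called genes of highest level, the 10 genes whose slides differ most and 2 genes on each side of the threshold. The comparison, lists and members were chosen with earlier results of these data known. The fit was tested on simulated data. Tables were made with Python 3.11.15 and pandas 2.3.3. Normexp, an alternative, used median spot signals with an offset of 50. Some genes of these lists are not reported here.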

Additional observations from a re-analysis of the deposited data

Results flagged for a closer look

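Of 34 genes called over both days, 21 have a symbol, and in 11 of these the change from E14.5 to E15.5 differed from that between E12.5 and E13.5 by the interaction term of limma (Benjamini-Hochberg adjusted p under 0.05, n = 2 arrays per stage). The later change minus the earlier one was -7.05 for Nanos2, -5.03 for Nanos3, -4.34 for Gtsf1l, -3.60 for Lrrc18, -3.35 for Fmn1 and -2.97 for Fbxo36, which rose and then fell. It was 6.27 for Cdhr1, 3.63 for Zan, 2.87 for T and 2.74 for Cldn10, which fell and then rose, and 1.59 for Ltf, which rose on both days. Cdhr1 was above background on neither E13.5 array and Ltf on neither E12.5 array, so their values rest on signals below background and are no exact sizes. T was above background on 1 E13.5 array, Lrrc18 on 1 E12.5 and 1 E15.5 array and Nanos2 on 1 E15.5 array. Adjusted p-values of the difference ran from 0.00803 for Cdhr1 to 0.036 for Ltf. Of the 34 genes 19 were called in opposite directions on the 2 days. Such genes differ between the days almost by their selection, so the interaction term adds little for them. The days were measured on different slides, so day and slide cannot be told apart.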

How the results depend on the processing

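With 981 genes called, 876 were called without the replicate block (no slide term), and leaving out this pairing by slide ended 17 of 175 calls on genes named in the text. Scaling to medians or quantiles, another probe rule, all spots or a robust spread kept the count within 1.5 times. It was 546 for genes above background on all 4 arrays, 345 with no filter, 39 with normexp on median signals and 501 with extreme background values replaced (chosen after seeing the data). With the 4 arrays alone 1 residual degree of freedom was left, and 0 genes were called by limma, with 6377 at an unadjusted p under 0.05. Leaving out 1 array gave 32 to 998, and 18 genes were called in every such fit. With normexp, 217 of the 981 called genes changed sign. Those named in the text were 20: Acvr1c to 0.080, Avp to 0.81, Cdhr1 to 0.21, Cldn10 to 0.73, Dapl1 to 0.15, Eomes to 1.0, Evx1 to 0.85, Gbp2b to 0.33, Gbx2 to 0.66, Has3 to 0.52, Lypd1 to 0.37, Nr1i2 to 0.87, Pax6 to 0.24, Pla2g4e to 0.32, Ptpn22 to 0.059, Scgn to 0.57, Slc6a20a to 0.60, Slco4c1 to 0.55, T to 0.83 and Zan to 0.29. These 20 are lower genes, and on 1 E13.5 array 3 spots of extreme background entered that correction. With these spots replaced 0 of the 20 and 1 of the 981 changed sign. Hsd3b2 changed to -0.32 with the mean of its probes. Calls among erythroid genes fell from 7 to 0 with no filter and among Leydig genes from 12 to 4. The later-day median of genes called higher was -0.013 with median scaling, and that of genes called lower 0.24 with median scaling and 0.19 with quantiles. The 2 arrays per stage limit the precision, and the cause of the changes was otherwise not tested.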

Other observations

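The transcription factor genes named here were chosen after their values were seen, because they were called lower, and no count of similar genes stands behind them. T, the mesoderm factor brachyury, had signals of 5.20 and 3.90 at E12.5 and 2.11 and 1.35 at E13.5, and Gbx2, a factor of the neural plate and of pluripotent cells, of 4.56 and 7.78 at E12.5 and 1.54 and 1.89 at E13.5. T fell, with a difference of -1.41 ± 0.20 (limma adjusted p = 0.0218) and was above background on 1 of the E13.5 arrays. Gbx2 was at least 3.22-fold and Eomes, a mesoderm factor, at least 1.86-fold lower (adjusted p = 0.0474 and 0.0388). Klf5 and Sox15, factors that pluripotent cells also express, fell from 67.0 and 69.2 to 26.3 and 32.5 and from 40.2 and 31.8 to 20.7 and 17.8 (adjusted p = 0.0256 and 0.0473).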
